A study of Mus musculus with 15 samples.

Results

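Acute-phase and complement genes mostly encode secreted proteins of innate defence. Of 25239 genes in the tables, 8 grouped under that name are described here (C3, Cfb, Serpina3g, Serpina3h, Serpina3n, Slpi, Lcn2 and Saa3). Among them, Serpina3h is listed as a transcribed pseudogene, and Serpina3g is known as an inhibitor inside cells. The 8 genes were picked by symbol, with earlier results of these data known. Which values guided the choice is not recorded, so the comparisons of IL-17 with medium, which may have guided it, are given for them as descriptions without p-values. RNA recovered by immunoprecipitation (RIP) from ST2 cells, a stromal cell line of mouse bone marrow origin, was sequenced in 15 libraries. The 4 groups were Arid5a antibody after 3 h of IL-17 (200 ng/mL; 4 libraries), Arid5a antibody in medium (4), mouse IgG2b with IL-17 (3, numbered 2, 3 and 4) and mouse IgG2b in medium (4). All cells were fixed with 1% formaldehyde, Arid5a is an RNA-binding protein, and the IgG2b precipitate is its control.

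IL-17 acts on stromal and epithelial cells through NF-kB and C/EBP factors and with them switches on genes of the acute-phase response, the set of plasma proteins made in quantity during inflammation. Complement is a cascade of plasma proteases in which C3 is the component that all activation routes cleave, and Cfb, factor B, supplies the protease of the alternative pathway enzyme that cleaves it. Serpina3g and Serpina3n belong to the mouse family of inhibitors that corresponds to human antichymotrypsin, and Slpi inhibits neutrophil elastase and cathepsin G. Lcn2 binds bacterial siderophores and so withholds iron, and Saa3 is the serum amyloid A that mouse tissues outside the liver produce. Arid5a is known to stabilise mRNAs of inflammatory genes, and the RIP addresses which transcripts it binds.

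The libraries held 939139 (IgG medium 2) to 5713913 counts (Arid5a IL-17 3). Values below are TMM-scaled CPM, counts scaled to library size and edgeR's composition factors, and 1 CPM stood for 0.89 to 5.22 counts. They describe the share of a transcript in the RNA recovered on beads. The tables hold bulk RNA, so that more RNA per cell and more cells with the transcript cannot be told apart, and no library of unprecipitated RNA was analysed here. The stromal markers Col1a1, Col1a2, Col3a1, Pdgfra, Pdgfrb, Thy1, Vcam1 and Cxcl12 together made up 10455 to 16507 CPM in a library. Most of this sum was Col1a1 (mean 7577 CPM), Col1a2 (3419 CPM) and Cxcl12 (1829 CPM). Of the 8 stromal markers, 6 had at least 10 counts in every library. Thy1 had 1 to 22 counts (mean 3.56 CPM) and Vcam1 had 5 to 225. The 7 hepatocyte markers in the table together made up 1.75 to 16.9 CPM, the 8 macrophage markers 6.50 to 24.1 CPM and the 8 neutrophil markers 0.96 to 31.0 CPM. Albumin had at most 4 counts in a library, and the neutrophil receptor gene Cxcr2 had up to 42.

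All 8 members were in the table, and 5 passed the filter on low counts. Serpina3h summed to 953 counts over the 15 libraries, Serpina3g to 534, Slpi to 389, C3 to 375 and Serpina3n to 193. Cfb (72 counts, at most 18 in a library), Lcn2 (22, at most 7) and Saa3 (9, at most 3) did not pass and were not tested in the main fit. C3 (gene ID 12266; chromosome 17, 57203967 to 57228136, GRCm38.p6, a patch release of the assembly mm10 names) and Cfb (chromosome 17, 34856374 to 34862514) lie on one chromosome. Slpi (chromosome 2, 164354070 to 164356507) and Lcn2 (chromosome 2, 32384637 to 32387739) lie on another, and Saa3 is on chromosome 7 (46711998 to 46719615). Serpina3g (chromosome 12, 104236147 to 104241939), Serpina3h (104247896 to 104254405) and Serpina3n (104406646 to 104414334) lie in a cluster of related genes. RefSeq lists Serpina3h as a transcribed pseudogene. The models of C3, Cfb and Slpi each contain a microRNA gene, and that of Saa3 overlaps the predicted gene Gm31882.

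Promoter sequences of 3 members that stood higher after IL-17 are shown because NF-kB and C/EBP factors are the known route from the IL-17 receptor to such genes. Each line is the 250 bases before the RefSeq start (GRCm38.p6), 5′ to 3′ in the direction of the gene. They are chr17:57228137-57228386 (minus strand) for C3, chr12:104235897-104236146 (plus strand) for Serpina3g and chr2:164356508-164356757 (minus strand) for Slpi. Capitals mark matches on either strand to the C/EBP letters TTNNGNAA and to the NF-kB consensus.
C3: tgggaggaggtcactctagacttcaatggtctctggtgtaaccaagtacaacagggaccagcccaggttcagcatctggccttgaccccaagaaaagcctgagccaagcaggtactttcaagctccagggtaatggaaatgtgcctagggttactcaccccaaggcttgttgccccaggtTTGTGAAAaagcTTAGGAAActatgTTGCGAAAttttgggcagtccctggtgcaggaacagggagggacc
Serpina3g: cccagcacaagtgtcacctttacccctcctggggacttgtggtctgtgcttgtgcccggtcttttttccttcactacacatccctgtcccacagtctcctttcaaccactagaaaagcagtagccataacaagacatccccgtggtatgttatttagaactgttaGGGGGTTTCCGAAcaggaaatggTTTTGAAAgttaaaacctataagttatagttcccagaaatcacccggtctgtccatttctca
Slpi: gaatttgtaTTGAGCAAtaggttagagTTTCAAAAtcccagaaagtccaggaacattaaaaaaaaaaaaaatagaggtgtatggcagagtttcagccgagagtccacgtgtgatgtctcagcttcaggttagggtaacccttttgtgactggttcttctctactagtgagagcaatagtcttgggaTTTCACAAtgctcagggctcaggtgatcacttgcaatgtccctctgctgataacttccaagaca
The C/EBP letters were matched at 3 places before C3, starting 70, 58 and 45 bases ahead of the start, with the last matching on both strands. They were matched at 3 places before Slpi (241, 223 and 64 bases ahead) and at 2 before Serpina3g (80 and 62 bases ahead). The NF-kB consensus was matched only before Serpina3g among the 6 members with a promoter in the table, 85 bases ahead of the start, and this match overlaps a C/EBP match. Of 32851 RefSeq promoters in the table, 36.8% held the C/EBP letters and 3.90% the NF-kB consensus in the same window. Lcn2, Saa3 and Serpina3n, which did not stand higher after IL-17 in both precipitates, held 1, 4 and 2 C/EBP matches.

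C3, Serpina3h and Slpi stood higher after IL-17 than in medium in both precipitates, with fitted folds between 3.91 and 6.43, and the groups did not overlap. Serpina3g stood higher by 2.17-fold in the Arid5a RIP and by 1.82-fold in the IgG RIP, but it shares reads with related genes of its cluster. The sum of Serpina3g and Serpina3f overlapped between treatments in each precipitate. None of the other members stood higher in both precipitates. No member was called different between the Arid5a and the IgG RIP in the test over all genes.

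C3 was at 14.3, 8.43, 12.1 and 15.3 CPM in the Arid5a IL-17 libraries 1 to 4, against 1.95, 2.89, 0.60 and 2.85 CPM in the Arid5a medium libraries 1 to 4. It was at 18.0, 4.203 and 6.70 CPM in the IgG IL-17 libraries 2 to 4, against 1.32, 1.12, 1.44 and 1.92 CPM in the IgG medium libraries 1 to 4. Every IL-17 library lay above every medium library of the same antibody, and IgG IL-17 2 lay far above the other libraries of its group. The counts behind these values were 37 to 68 in Arid5a IL-17 and 2 to 11 in Arid5a medium, and 12 to 84 in IgG IL-17 and 1 to 6 in IgG medium. The log2 fold of IL-17 over medium was 2.58 ± 0.58 (SE) in the Arid5a RIP and 2.68 ± 0.65 in the IgG RIP. Without IgG IL-17 2 the fold in the IgG RIP was 1.83 on the log2 scale. In that fit Serpina3h was at 2.20 and Slpi at 2.95, so that C3 had the lowest of the 3 folds.

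Serpina3h was the member with the most counts. Its level was 24.3, 37.7, 30.7 and 28.0 CPM in Arid5a IL-17 libraries 1 to 4, against 6.52, 5.88, 8.13 and 7.77 CPM in Arid5a medium. Among the IgG libraries it was 30.9, 22.6 and 26.3 CPM with IL-17 (libraries 2 to 4), against 4.198, 8.98, 2.17 and 7.69 CPM in medium. The groups did not overlap, and the gap between IL-17 and medium was wider than the range within any group. The log2 fold was 2.08 ± 0.35 in the Arid5a RIP and 2.32 ± 0.39 in the IgG RIP.

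Slpi, a secreted inhibitor that protects tissue from neutrophil proteases, was at 9.22, 16.4, 12.8 and 7.93 CPM in Arid5a IL-17 libraries 1 to 4, against 2.61, 4.96, 2.11 and 2.33 CPM in Arid5a medium. In the IgG RIP it was at 8.57, 8.41 and 25.4 CPM with IL-17 (libraries 2 to 4), against 1.99, 0, 4.69 and 0.96 CPM in medium. IgG IL-17 4 was high, and the value of 0 came from IgG medium 2, the shallowest library, where 3 counts would have been 3.37 CPM. The log2 fold was 1.97 ± 0.58 in the Arid5a RIP and 2.68 ± 0.64 in the IgG RIP. Without IgG IL-17 4 it was 2.001 in the IgG RIP.

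Serpina3g, known in mouse as an inhibitor of cysteine cathepsins inside cells, was at 18.4, 11.4, 10.5 and 17.1 CPM in Arid5a IL-17 libraries 1 to 4, against 5.41, 8.90, 7.86 and 4.14 CPM in Arid5a medium. The IgG libraries held 15.7, 7.71 and 17.2 CPM with IL-17 (libraries 2 to 4), against 2.65, 16.8, 2.65 and 11.2 CPM in medium. The groups were apart in the Arid5a RIP and overlapped in the IgG RIP, where the medium libraries 2 and 4 reached the range of the IL-17 libraries. The log2 fold was 1.12 ± 0.49 in the Arid5a RIP and 0.86 ± 0.54 in the IgG RIP.

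In the Arid5a RIP the fit called 3 of the 8 members (C3, Serpina3h and Slpi) higher with IL-17, where 4.84% of the 17835 genes tested were called higher and 5.65% in either direction. It called the same 3 higher in the IgG RIP, where 0.258% of genes were called higher and 0.493% in either direction. No tested member was called lower, against 0.813% and 0.235% of genes. Without overlap of the groups, 4 members were higher in the Arid5a RIP (10.7% of genes higher, 9.29% lower) and 3 in the IgG RIP (4.28% higher, 3.34% lower). Since these comparisons may have guided the choice of the genes, nothing is read from the counts. In both RIPs the calls of C3 and Slpi moved with the setting, while Serpina3h was called in all 26 other fits of each comparison. C3 was called in 24 of them in the Arid5a RIP and 10 in the IgG RIP, and Slpi in 14 and 11. The share of all genes called moved as well, from 0.421% to 41.7% in the Arid5a RIP and from 0.224% to 1.77% in the IgG RIP. The folds of C3, Serpina3g, Serpina3h and Slpi stayed above 0 in every one of these fits. All of these fits reuse the libraries that may have guided the choice, so they describe the dependence on settings and lend no support. Summed markers of other cell types lay lower with IL-17 in the Arid5a RIP, at 6.50 to 12.8 CPM against 18.4 to 24.1 CPM in medium for macrophages and 6.13 to 15.3 CPM against 15.6 to 31.0 CPM for neutrophils. The hepatocyte sum there was 1.75 to 10.05 CPM with IL-17 and 8.61 to 15.8 CPM in medium. In the IgG RIP the macrophage sum was 9.11 to 10.5 CPM with IL-17 and 12.4 to 23.4 CPM in medium, the neutrophil sum 0.96 to 20.3 CPM and 9.06 to 18.0 CPM, and the hepatocyte sum 6.22 to 10.5 CPM and 11.7 to 16.9 CPM. No marker on these lists was at 0 in all libraries, S100a8 had at most 1 count, and the part of such cells in the results was not tested.

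**Figure D1:**
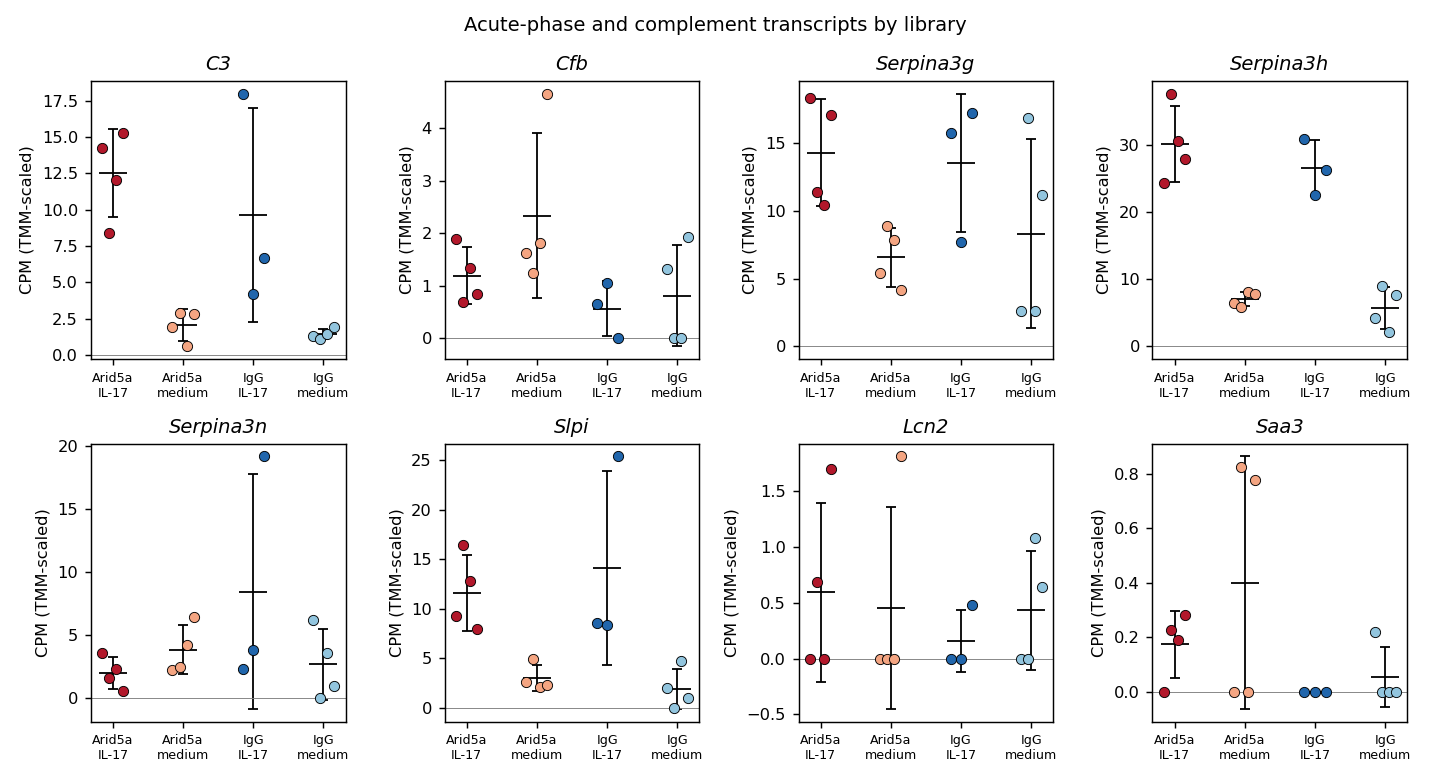
TMM-scaled CPM (vertical axis, own scale per gene) of the 8 members in the 4 groups on the horizontal axis, 1 point per library, with the group mean (bar) and SD (whiskers). C3, Serpina3h and Slpi lie higher with IL-17 than in medium for both antibodies, while Cfb, Lcn2 and Saa3 stay below 5 CPM throughout.

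Serpina3n, a secreted inhibitor of granzyme B and elastase in mouse, did not share the pattern. It was at 3.56, 1.60, 2.30 and 0.57 CPM in Arid5a IL-17 libraries 1 to 4, against 2.28, 2.48, 4.22 and 6.47 CPM in Arid5a medium. Its IgG values were 2.36, 3.85 and 19.1 CPM with IL-17 (libraries 2 to 4), against 6.18, 0, 3.61 and 0.96 CPM in medium. The groups overlapped for both antibodies, and IgG IL-17 4 alone, with 40 counts, lay above 7 CPM. The log2 fold of IL-17 over medium was -0.93 ± 0.76 in the Arid5a RIP and 1.43 ± 0.81 in the IgG RIP, where it was 0.06 without IgG IL-17 4.

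Cfb had 9, 3, 7 and 3 counts in Arid5a IL-17 libraries 1 to 4, against 5, 3, 6 and 18 in Arid5a medium. IgG libraries held 3, 3 and 0 counts with IL-17 (libraries 2 to 4), against 6, 0, 0 and 6 in medium. Cfb was thus present in every Arid5a library and missing from 3 IgG libraries, with overlap between all groups. In the fit without a filter on low counts (23747 genes) its log2 fold of Arid5a over IgG was 1.32 ± 1.04 in medium (edgeR adjusted p = 0.660) and 1.01 ± 1.18 with IL-17 (edgeR adjusted p = 0.835).

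Lcn2 had 0, 3, 0 and 6 counts in Arid5a IL-17 libraries 1 to 4, against 0, 0, 0 and 7 in Arid5a medium. IgG libraries held 0, 0 and 1 count with IL-17 (libraries 2 to 4), against 0, 0, 3 and 2 in medium. Libraries with and without Lcn2 counts occurred in every group. A library at 0 allows up to 3 counts, which is 0.57 to 3.37 CPM depending on its depth, a limit that covers counting error only. Saa3 had 0, 1, 1 and 1 count in Arid5a IL-17, against 0, 2, 0 and 3 in Arid5a medium, and it had 0 in all IgG IL-17 libraries, against 1, 0, 0 and 0 in IgG medium. No change of Lcn2 or Saa3 with IL-17 was detectable at this depth. Without the filter their log2 folds of Arid5a over IgG had standard errors of 1.33 to 1.81 and edgeR adjusted p from 0.679 to 0.993.

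For cells in medium, mean C3 was 2.07 ± 1.07 CPM with the Arid5a antibody and 1.45 ± 0.34 CPM with IgG (SD over 4 libraries each). Slpi averaged 3.00 ± 1.32 CPM with the Arid5a antibody and 1.91 ± 2.03 CPM with IgG. Serpina3h averaged 7.07 ± 1.05 CPM with the Arid5a antibody and 5.76 ± 3.13 CPM with IgG. The Serpina3g means were 6.58 ± 2.18 CPM with the Arid5a antibody and 8.34 ± 6.96 CPM with IgG. No tested member was without overlap in medium (5.01% of genes higher, 4.06% lower) or with IL-17 (5.31% higher, 4.38% lower). The log2 folds of Arid5a over IgG were 0.45 ± 0.66 for C3, 0.45 ± 0.64 for Slpi, 0.41 ± 0.39 for Serpina3h, 0.37 ± 0.77 for Serpina3n and -0.18 ± 0.53 for Serpina3g. Adjusted p from edgeR lay between 0.694 and 0.924. No member passed by edgeR or voom, and 0 had an unadjusted edgeR p below 0.05, beside 2279 of the 17835 genes tested. Over all genes edgeR called 0.628% in either direction (0.0561% higher, 0.572% lower). DESeq2 gave none of the tested members an adjusted p in this comparison, so it could not call any.

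With IL-17, Serpina3h averaged 30.2 ± 5.66 CPM over 4 Arid5a libraries and 26.6 ± 4.18 CPM over 3 IgG libraries. Its log2 fold of Arid5a over IgG was 0.18 ± 0.35 (edgeR adjusted p = 0.911). The 95% interval of this fold ran from 0.69 to 1.85, the narrowest among the members. C3 averaged 12.5 ± 3.03 CPM with the Arid5a antibody and 9.63 ± 7.34 CPM with IgG (log2 fold 0.35 ± 0.56, interval of the fold 0.58 to 2.80). Slpi averaged 11.6 ± 3.82 CPM with the Arid5a antibody and 14.1 ± 9.74 CPM with IgG (log2 fold -0.26 ± 0.57, interval 0.38 to 1.86). The Serpina3g means were 14.3 ± 3.97 CPM with the Arid5a antibody and 13.6 ± 5.12 CPM with IgG (log2 fold 0.08 ± 0.51, interval 0.51 to 2.17). For Serpina3h an enrichment above 1.85-fold in the Arid5a RIP lies outside the interval, while for C3 one of up to 2.80-fold lies inside it.

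Serpina3n was the member with the lowest fold of Arid5a over IgG with IL-17, at 2.01 ± 1.26 CPM over 4 Arid5a libraries and 8.45 ± 9.29 CPM over 3 IgG libraries. The log2 fold was -1.995 ± 0.81, with an edgeR unadjusted p of 0.0184 and an adjusted p of 0.456. It was -0.58 without IgG IL-17 4. By edgeR 1 member (Serpina3n) had an unadjusted p below 0.05, as did 1596 of the 17835 genes tested. All of edgeR, DESeq2 and voom called 0 members. Over all genes 0.0673% were called in either direction (0.0561% higher, 0.0112% lower).

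The change of the Arid5a to IgG difference with IL-17, the interaction of antibody and treatment, was not called for any member, where edgeR called 0.976% of genes (0.869% higher, 0.107% lower). Its log2 values were -0.10 ± 0.82 for C3, 0.25 ± 0.74 for Serpina3g, -0.24 ± 0.52 for Serpina3h and -0.71 ± 0.86 for Slpi (edgeR adjusted p from 0.711 to 0.963). For Serpina3n it was -2.36 ± 1.12 (edgeR unadjusted p = 0.0412, adjusted p = 0.285), and -0.94 without IgG IL-17 4. An unadjusted edgeR p below 0.05 was found for 2905 of the 17835 genes tested. DESeq2 and voom called 0 members as well. The 95% interval of the ratio of ratios ran from 0.41 to 1.77 for Serpina3h and from 0.30 to 2.93 for C3. A change within those bounds remains possible on these data.

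**Figure D2:**
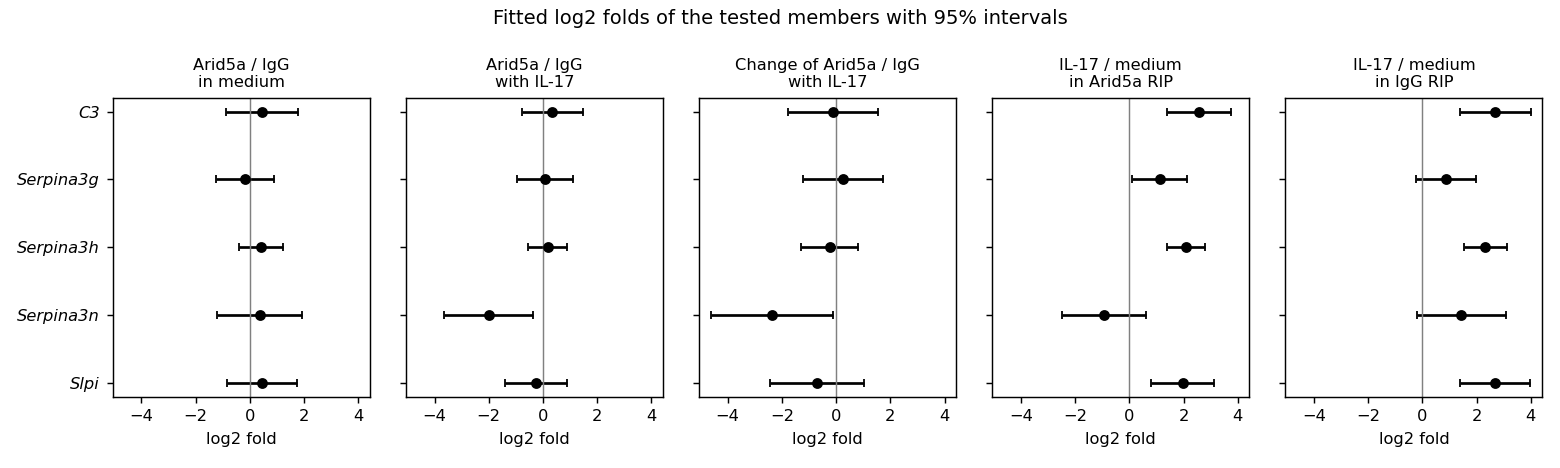
Fitted log2 folds (horizontal axis) of the 5 members that passed the filter, with 95% intervals as bars, in the 5 comparisons. In the antibody comparisons the points of C3, Serpina3g, Serpina3h and Slpi lie between -0.26 and 0.45, and in the IL-17 comparisons those of C3, Serpina3h and Slpi lie between 1.97 and 2.68.

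The counts of Serpina3g and Serpina3h were partly divided with neighbours in the cluster. Expected counts were not whole in 8 of 15 libraries for Serpina3g, 6 for Serpina3h, 8 for Serpina3f and 9 for Serpina3i, at a tolerance of 0.011. The sum of these 4 genes was whole in 15 of 15 libraries. The sum of Serpina3h and Serpina3i was whole in 9, and so was that of Serpina3g and Serpina3f. Serpina3n had whole counts throughout, as did C3, Slpi, Cfb, Lcn2 and Saa3. How much of a value belongs to Serpina3g or to Serpina3h is therefore uncertain where reads fit several of these genes.

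The sum of the 4 genes does not depend on that division. It was 53.9, 56.7, 51.5 and 61.4 CPM in Arid5a IL-17 libraries 1 to 4, against 25.4, 26.8, 28.3 and 24.1 CPM in Arid5a medium. For IgG it was 61.5, 36.4 and 50.2 CPM with IL-17 (libraries 2 to 4), against 17.7, 32.6, 14.1 and 26.9 CPM in medium. Every IL-17 library lay above every medium library of its antibody. This sum was put together after its values were seen and was not tested. Within it, Serpina3h and Serpina3i together averaged 38.5 ± 5.06 CPM (n = 4) in Arid5a IL-17 and 13.3 ± 3.04 CPM (n = 4) in Arid5a medium, and 34.9 ± 7.59 CPM (n = 3) in IgG IL-17 and 8.84 ± 4.93 CPM (n = 4) in IgG medium. Serpina3g and Serpina3f together averaged 17.4 ± 4.45 CPM in Arid5a IL-17 and 12.8 ± 3.91 CPM in Arid5a medium, and 14.5 ± 5.62 CPM in IgG IL-17 and 13.97 ± 4.09 CPM in IgG medium. The Serpina3h and Serpina3i pair was apart between treatments for both antibodies, and the Serpina3g and Serpina3f pair overlapped. Serpina3f alone averaged 3.08 ± 0.99 CPM in Arid5a IL-17 and 6.26 ± 1.98 CPM in Arid5a medium, and 0.95 ± 1.362 CPM in IgG IL-17 and 5.63 ± 3.91 CPM in IgG medium. Its log2 fold with IL-17 was -0.98 ± 0.70 in the Arid5a RIP (edgeR adjusted p = 0.4002) and -2.38 ± 0.85 in the IgG RIP (edgeR adjusted p = 0.237). In the Arid5a RIP the groups of Serpina3g alone were thus apart, while those of its pair with Serpina3f overlapped. The folds given for Serpina3g alone do not stand for the pair. Reads were also shared beyond this pair, whose sum was not whole in 6 of 15 libraries.

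**Figure D3:**
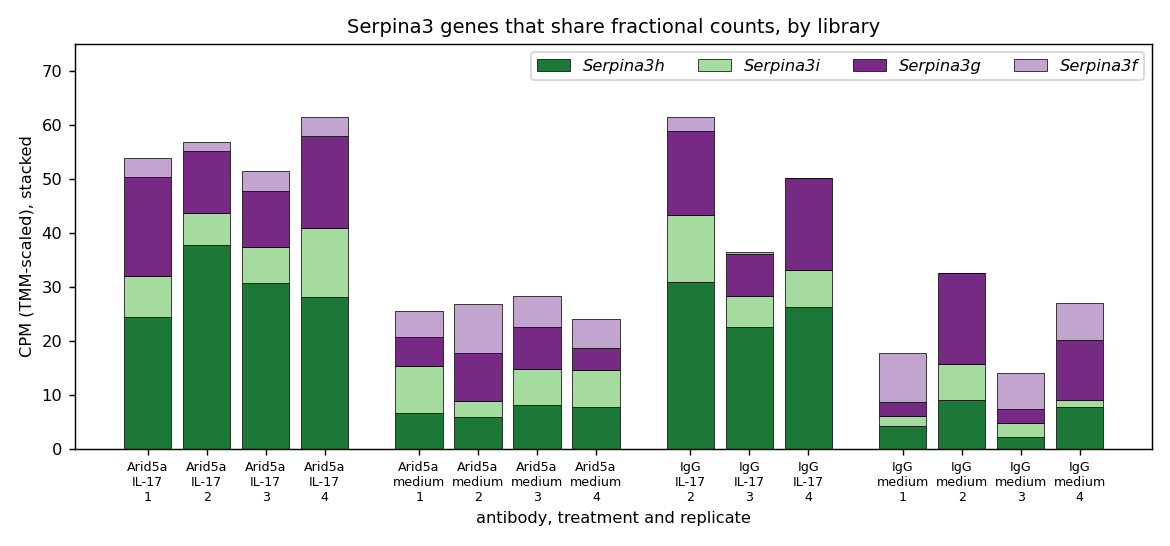
Stacked TMM-scaled CPM (vertical axis) of Serpina3h, Serpina3i, Serpina3g and Serpina3f in each of the 15 libraries (horizontal axis). The stacks reach 36.4 to 61.5 CPM with IL-17 and 14.1 to 32.6 CPM in medium, and Serpina3h makes up most of the gap.

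Levels between genes are comparable per length, in FPKM. In Arid5a IL-17 Slpi averaged 17.8 ± 5.94 FPKM (SD, n = 4), followed by Serpina3h at 15.7 ± 2.89, Serpina3g at 7.30 ± 2.19 and C3 at 2.41 ± 0.70 FPKM. Serpina3n, Lcn2, Saa3 and Cfb came last, at 1.00, 0.99, 0.63 and 0.44 FPKM. The ranges of Slpi and Serpina3h overlapped, those of Serpina3h, Serpina3g and C3 were apart, and each gene from C3 downwards overlapped the next. In Arid5a medium the order was Slpi (4.82 FPKM), Serpina3h (4.17), Serpina3g (4.04), Serpina3n (2.23), Saa3 (1.28), Cfb (0.99), Lcn2 (0.73) and C3 (0.46), and each gene overlapped the next. By mean FPKM C3 was thus the lowest member in Arid5a medium and the fourth with IL-17, but the order in medium rests on few counts. In Arid5a medium C3 had 2 to 11 counts, Saa3 had 0 to 3, and Lcn2 had 7 in library 4 and 0 in the others.

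In the IgG RIP with IL-17, Slpi averaged 20.6 ± 12.8 FPKM (n = 3), Serpina3h 14.5 ± 2.32, Serpina3g 8.34 ± 3.50, Serpina3n 4.34 ± 4.55 and C3 1.97 ± 1.56 FPKM, and Saa3 was listed at 0 in all libraries. Serpina3h was apart from Serpina3g, and C3 was apart from Cfb at 0.23 FPKM. In IgG medium Serpina3g (5.40 ± 5.13 FPKM, n = 4), Serpina3h (3.07 ± 1.70) and Slpi (2.69 ± 2.72) came first, and each gene overlapped the next. The leading genes were the same 3 in all groups.

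Other genes of these pathways, in lists that were drawn up with earlier results of these data known, gave no call with IL-17 in the edgeR test. For reading the other counts, voom called 41.7% of all 17835 genes in the Arid5a RIP and 0.303% in the IgG RIP, and DESeq2 called 7.57% and 1.77%. An unadjusted edgeR p below 0.05 was found for 3972 genes in the Arid5a RIP and 1988 in the IgG RIP. Of 26 further complement components, 11 were tested and 0 called in the Arid5a RIP by edgeR (3 at an unadjusted p below 0.05, 0 by DESeq2, 8 by voom) and 0 in the IgG RIP by any of these tools or at an unadjusted p below 0.05. Their median log2 fold was -0.61 in the Arid5a RIP, beside -0.12 over all genes tested, and -0.04 in the IgG RIP, beside 0.00. With upper-quartile factors the IgG median turned to 0.02. Those with the highest levels per length were Colec12, a scavenger receptor with a collectin domain, Masp1, a protease of the lectin pathway, and C1ra, a protease of the classical pathway. They averaged 71.7, 24.2 and 21.5 FPKM in Arid5a IL-17 and 64.3, 22.7 and 15.3 FPKM in Arid5a medium. These are levels above those of C3 in every group. Colec12, Masp1 and C1ra had log2 folds with IL-17 of 0.36 ± 0.14, 0.31 ± 0.17 and 0.69 ± 0.22 in the Arid5a RIP (edgeR adjusted p = 0.112, 0.259 and 0.0518). In the IgG RIP these folds were -0.17 ± 0.15, -0.19 ± 0.18 and 0.01 ± 0.24. Of the 11 tested components, 4 had a fold above 0 in the Arid5a RIP. Of 13 complement regulators, 6 were tested and 0 called by edgeR in either IL-17 comparison, with unadjusted p below 0.05 for 2 in the Arid5a RIP and 0 in the IgG RIP, 0 by DESeq2 and 2 and 0 by voom. Their median log2 folds were 0.03 in the Arid5a RIP, where upper-quartile factors turned it to -0.16, and 0.06 in the IgG RIP. Serping1, the inhibitor of the C1 proteases, averaged 1.24 ± 0.59 FPKM in Arid5a IL-17 and 3.49 ± 1.55 FPKM in Arid5a medium, and 3.99 ± 0.67 FPKM in IgG IL-17 and 4.41 ± 1.33 FPKM in IgG medium. Its log2 fold with IL-17 in the Arid5a RIP was -1.37 ± 0.60 (edgeR adjusted p = 0.175).

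Of 30 further acute-phase genes, 14 were tested and 0 called by edgeR in either IL-17 comparison, while 5 (Arid5a RIP) and 2 (IgG RIP) had an unadjusted p below 0.05, 3 and 1 were called by DESeq2 and 5 and 0 by voom. Their median log2 fold was -0.08 in the Arid5a RIP and 0.23 in the IgG RIP. The highest per length were Il1rn, the IL-1 receptor antagonist, and Ptx3, a long pentraxin that binds complement C1q. Il1rn averaged 71.9 FPKM in Arid5a IL-17 and 81.3 FPKM in Arid5a medium, and 58.7 FPKM in IgG IL-17 and 93.2 FPKM in IgG medium. Its log2 fold with IL-17 was 0.01 ± 0.18 in the Arid5a RIP (edgeR adjusted p = 0.971) and -0.69 ± 0.20 in the IgG RIP (edgeR adjusted p = 0.114). Ptx3 averaged 30.6 FPKM in Arid5a IL-17 and 21.8 FPKM in Arid5a medium, and 38.5 FPKM in IgG IL-17 and 24.03 FPKM in IgG medium. Ptx3 had a log2 fold with IL-17 of 0.66 ± 0.25 in the Arid5a RIP (edgeR adjusted p = 0.113) and 0.67 ± 0.27 in the IgG RIP (edgeR adjusted p = 0.341). Of 19 other Serpina3 and WAP inhibitor genes in the table, 8 were tested and 0 called by edgeR, with unadjusted p below 0.05 for 1 and 2 in these comparisons, 0 by DESeq2, 1 and 0 by voom, and median log2 folds of -0.95 and -0.30. Of 18 receptors and target proteases, 12 were tested and 0 called by edgeR, with unadjusted p below 0.05 for 3 and 1, 0 and 1 by DESeq2, 7 and 0 by voom, and median log2 folds of -0.87 and -0.16. Tlr2, a receptor for bacterial lipoproteins, had a log2 fold of 0.56 ± 0.26 in the Arid5a RIP and 0.99 ± 0.29 in the IgG RIP (edgeR adjusted p = 0.197 and 0.120). In the antibody comparisons and the interaction, edgeR called 0 genes of any of these 5 lists, with 0 to 4 per list and comparison at an unadjusted p below 0.05, 0 or 1 by DESeq2 and 0 or 1 by voom. Over all 17835 genes, an unadjusted edgeR p below 0.05 was found for 2279 in medium, 1596 with IL-17 and 2905 in the interaction. In the same order DESeq2 called 1.83%, 0.336% and 2.21% of genes, and voom 0.852%, 2.69% and 9.27%.

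**Figure D4:**
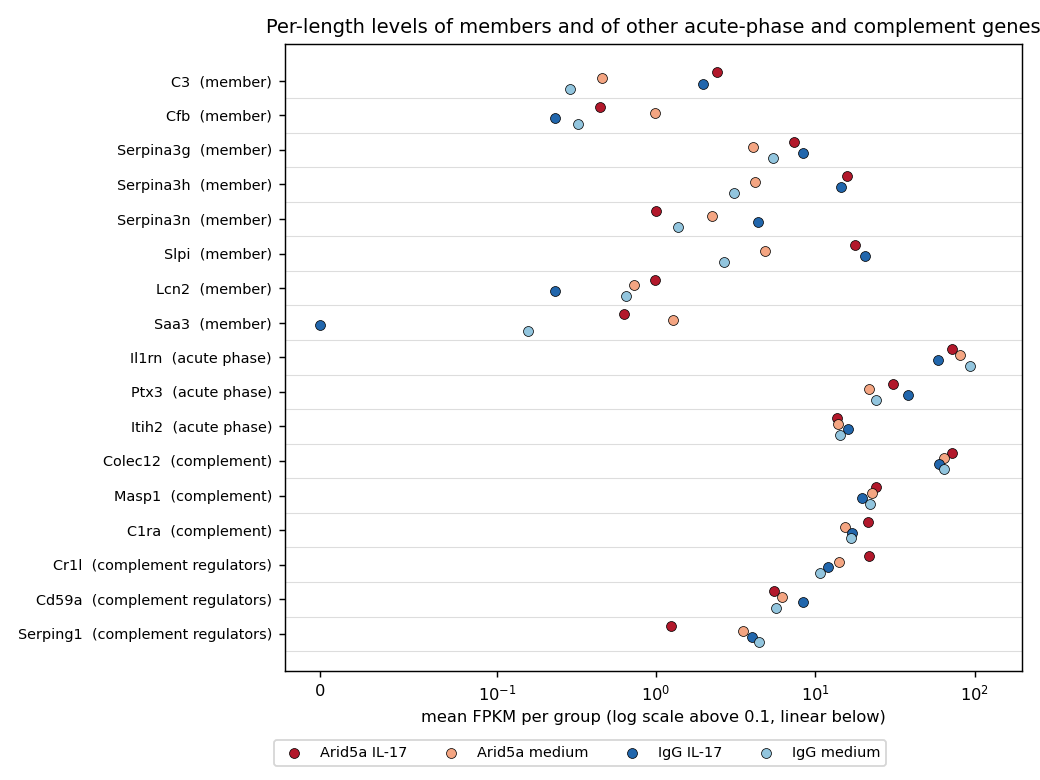
Mean FPKM per group (horizontal axis, logarithmic above 0.1 and linear below) of the 8 members and of the 3 genes with the highest mean FPKM in the lists of other acute-phase genes, other complement components and complement regulators. C3 lies at 2.41 and 1.97 FPKM with IL-17 in the Arid5a and IgG RIP and at 0.46 and 0.29 FPKM in medium, below Colec12, Masp1 and C1ra in all groups.

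Of 17 known regulators of the family, in a list also drawn up with earlier results of these data known, 16 were tested. The genes named from it were picked by smallest p or by level. Their calls are therefore descriptions, and nothing is read from the counts. In the Arid5a RIP 11 of the 16 regulators were called higher with IL-17 and 5 were not called, where 4.84% of all genes were called higher. Their median log2 fold there was 1.04, beside -0.12 over all genes and 0.30 over the 5394 well-expressed ones. In the IgG RIP 5 were called higher and 11 were not called, where 0.258% of genes were called higher (median 0.45, beside 0.00). Cebpb, another C/EBP factor, had log2 folds of 0.82 ± 0.20 in the Arid5a RIP (edgeR adjusted p = 0.0108) and 0.25 ± 0.21 in the IgG RIP (edgeR adjusted p = 0.725). The count in the Arid5a RIP was 7 with factors from well-expressed genes. Cebpd, a C/EBP factor of the acute-phase response, had log2 folds of 1.96 ± 0.26 (edgeR adjusted p = 5.18e-06) in the Arid5a RIP and 1.70 ± 0.28 (adjusted p = 0.000589) in the IgG RIP. Nfkbiz, the NF-kB cofactor required for a subset of IL-17 targets, had 1.94 ± 0.20 (edgeR adjusted p = 1.78e-08) and 1.48 ± 0.21 (adjusted p = 9.55e-05). Zc3h12a had 2.79 ± 0.26 (edgeR adjusted p = 2.34e-09) and 1.75 ± 0.27 (adjusted p = 0.000337). For Nfkbia they were 1.87 ± 0.22 (edgeR adjusted p = 7.98e-07) and 0.75 ± 0.24 (adjusted p = 0.173). For Nfkb1 they were 1.12 ± 0.20 (edgeR adjusted p = 0.000613) and 1.34 ± 0.22 (adjusted p = 0.000632). Il6st was not called, at 0.34 ± 0.15 in the Arid5a RIP (edgeR adjusted p = 0.157). In the antibody comparisons and the interaction 0 regulators were called by edgeR, while 5, 1 and 4 had an unadjusted p below 0.05, DESeq2 called 0 and voom 0, 2 and 3. Over all 17835 genes, 2279, 1596 and 2905 had an unadjusted edgeR p below 0.05, and voom called 0.852%, 2.69% and 9.27%. The interaction was 1.12 ± 0.33 for Nfkbia (edgeR adjusted p = 0.0834) and 1.04 ± 0.37 for Zc3h12a (edgeR adjusted p = 0.148).

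Across the 15 libraries, the genes closest to each tested member by Pearson r of log2 CPM were sought among 14658 genes whose log2 CPM averaged 2 or more. They were Nfkbiz (0.89), Clip1 (0.86) and Cxcl1 (0.86) for C3, Vcam1 (0.95), Rasal2 (0.94) and Cd44 (0.94) for Slpi, and Csrp2 (0.93), Prdm15 (0.93) and Cebpd (0.92) for Serpina3h. For Serpina3g they were Glod4 (0.82), Vdr (0.81) and Prdm15 (0.79), and for Serpina3n Phyh (0.88), Med31 (0.86) and Gata6 (0.86). The first of each list for C3, Slpi and Serpina3h stood higher with IL-17 in the group means of both precipitates. This follows largely from the ranking, because these members were themselves split by IL-17. Nfkbiz averaged 111 CPM in Arid5a IL-17 and 28.8 CPM in Arid5a medium, and 89.7 CPM in IgG IL-17 and 33.0 CPM in IgG medium. Vcam1, a leukocyte adhesion molecule, averaged 43.8 CPM in Arid5a IL-17 and 21.6 CPM in Arid5a medium, and 39.0 CPM in IgG IL-17 and 16.9 CPM in IgG medium. Phyh, Med31 and Gata6, the 3 closest to Serpina3n, each averaged highest in the IgG IL-17 group, as Serpina3n did. That Serpina3n mean rests on IgG IL-17 4 at 19.1 CPM, and the genes were picked for likeness to it. All of these likenesses are descriptions over libraries that share treatment and depth.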

How the data were processed

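Counts and FPKM of RNA precipitated with Arid5a antibody or mouse IgG2b were analysed. Per the submitters' processing notes, the tools included RSEM 1.3.1, STAR 2.7.9, R 4.3.0 and DESeq2 1.36.0, with the mm10 build. What each did, and which annotation and strandedness option were set, is not given in the sources used here. The deposited expected counts are unnormalised, and the authors' FPKM values are scaled to gene length and mapped total. Library preparation used a stranded SMART-Seq kit, per the labels' protocols.

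Expected counts were rounded, filtered with filterByExpr by group (17835 genes), scaled with TMM factors and fitted to 4 group means over 15 libraries by edgeR 4.0.16 robust quasi-likelihood in R 4.3.3. Calls use a Benjamini-Hochberg adjusted p below 0.05 over all genes tested, with limma 3.58.1 and DESeq2 1.42.0 as alternatives. The procedure was tested on simulated counts. The members and lists were chosen with earlier results of these data known. Named genes are the 8 members, up to 4 called genes per list and comparison by smallest p, the 3 per list with the highest mean FPKM, and the 3 genes most like each tested member. Each label names a separate sample but no separate culture, so p-values measure the spread between these samples. Same-numbered libraries of different groups had deviations from their group means that correlated at -0.23 to 0.22, so the numbers were not taken as pairs. Symbols of all 8 members matched RefSeq GRCm38.p6, and 6 had a promoter sequence there.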

Additional observations from a re-analysis of the deposited data

Results flagged for a closer look

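Among 24 sets of 4 libraries with any spread (a member in a group of 4), 3 held a library far from the others by Dixon's criterion. Its chance rate of about 1 group in 20 holds for continuous normal values and is no yardstick for such low counts. Cfb stood at 4.66 CPM (18 counts) in Arid5a medium 4. Lcn2 stood at 1.81 CPM (7 counts) in the same library, with 0 in the other libraries of the group. Saa3 stood at 0.22 CPM, a value of 1 count, in IgG medium 1. A group with a single library above 0, as for Lcn2 and Saa3 here, is flagged whatever the count. All 3 genes lie below the filter on low counts.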

How the results depend on the processing

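Members called in the antibody comparisons and the interaction numbered 0 under every alternative run. Over all genes these runs called 0% to 1.98% in medium, 0% to 2.69% with IL-17 and 0% to 9.27% in the interaction. For Arid5a against IgG in medium the 0 of DESeq2 is empty, because it gave the tested members no adjusted p. For IL-17 against medium the count of 3 became 1 with log2(FPKM + 1) and log2(FPKM + 0.1) in the Arid5a RIP, and 1 with DESeq2, voom, the replicate block and log2(FPKM + 0.1) in the IgG RIP. The share of all genes called was 0.634% and 0.421% in those Arid5a runs, against 5.65% in the main fit. In those IgG runs it was 1.77%, 0.303%, 0.37% and 0.224%, against 0.493%. Leaving out a library gave 2 to 3 members in the Arid5a RIP and 1 to 3 in the IgG RIP. Of all genes, 1.73% to 12.8% and 0.23% to 1.45% were then called. The replicate block (same-numbered libraries are not paired by the labels) left 2 members called in the Arid5a RIP and Serpina3h as the 1 called in the IgG RIP. It called 4.4% of all genes in the Arid5a RIP and 0.37% in the IgG RIP. Counts for IL-17 against medium remain descriptions, since these comparisons may have guided the choice of the genes.

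Folds that were not called changed sign as follows, in log2 units; the cause was not tested. Serpina3g in Arid5a against IgG in medium was 0.48 with voom, 0.062 with log2(FPKM + 0.1), 0.29 without IgG medium 2 and IgG IL-17 4 (chosen after seeing the data), and -0.52 to 0.29 with libraries left out in turn. Serpina3g in Arid5a against IgG with IL-17 was -0.015 with upper-quartile factors, -0.026 with library totals, -0.059 with factors from well-expressed genes, -0.0086 with voom, -0.14 and -0.15 with log2(FPKM + 1) and log2(FPKM + 0.1), and -0.20 to 0.27 with libraries left out. Slpi there was 0.35 with voom, 0.48 without IgG medium 2 and IgG IL-17 4, and -0.53 to 0.45 with libraries left out. In the interaction, C3 was 0.095 with voom, 0.21 with the replicate block, 0.13 and 0.077 with log2(FPKM + 1) and log2(FPKM + 0.1), and -0.44 to 0.77 with libraries left out. Serpina3g in the interaction was -0.013 with library totals, -0.040 with factors from well-expressed genes, -0.49 with voom, -0.11 and -0.21 with the FPKM settings, -0.0012 without IgG medium 2 and IgG IL-17 4, and -0.21 to 0.60 with libraries left out. Slpi in the interaction was 0.24 without those 2 libraries and -1.44 to 0.008 with libraries left out, and Serpina3h -0.53 to 0.047. Serpina3n with IL-17 in the IgG RIP was -0.25 without those 2 libraries.

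Factors from well-expressed genes moved the median of all genes by -0.29 for IL-17 in the Arid5a RIP. Lcn2 and Saa3, at up to 7 and 3 counts, allow no statement on small changes.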
